A study of Homo sapiens with 6 samples.

Results

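The 10 aldehyde dehydrogenase genes ALDH1A1, ALDH1A2, ALDH1A3, ALDH1B1, ALDH2, ALDH3A1, ALDH3A2, ALDH3B1, ALDH7A1 and ALDH9A1 were followed by RNA sequencing through the passage of ovarian cancer spheres to attached cells. They were taken by name from a table of 58735 genes, in which all 10 were found. Cells under the label SKOV3, a human ovarian cancer line in wide use, were grown as floating spheres on ultra-low-attachment plates in DMEM/F12 with the serum replacement B27, and per the methods also with insulin and the growth factors EGF and bFGF (3 libraries). Sphere-differentiated cells were spheres that had been moved to standard plates in DMEM with fetal bovine serum, where they spread and attached (3 libraries). Neither state received a drug or a genetic change, and both came from cultures under the same cell line name. Serum, basal medium, added factors and attachment differ together between the states and cannot be told apart. The study states in general terms that its replicates were biological, without naming these libraries, so the p values measure the spread between these libraries.

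Aldehyde dehydrogenases oxidise aldehydes to carboxylic acids with NAD or NADP as the acceptor. The ALDH1A enzymes turn retinaldehyde into retinoic acid, the ligand of nuclear receptors that control differentiation, while other members clear aldehydes that arise from ethanol, lipid peroxidation, fatty alcohols, amino acids or polyamines. High aldehyde dehydrogenase activity, often ascribed to ALDH1A1, is widely used to sort stem-like cells from ovarian tumours. Enzyme activity was not measured here. The values are transcript levels per gene, in FPKM (fragments scaled to exon length and a total per library). Transcripts of the same gene are not separated, so the question of a dominant isoform could be asked only of the isozyme genes.

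The libraries held between 14725462 and 16376331 fragments assigned to genes. The line's usual markers went against the label in part. ERBB2, which is amplified in SKOV3, was at only 6.56 to 10.2 FPKM, and CDKN2A, which that line is known not to express, was at 24.9 to 31.7 FPKM in sphere-differentiated cells and 55.0 to 89.3 FPKM in floating spheres (log2 fold change 1.24, limma adjusted p = 0.00527). The epithelial keratin KRT8 was at 34.5 to 74.9 FPKM with no call, and its partner KRT18 was lower in floating spheres (46.5 to 63.7 FPKM, against 108.3 to 114 FPKM, log2 fold change -1.07, limma adjusted p = 0.00326). The Müllerian factor PAX8 was at 1.69 to 3.40 FPKM with no call, MUC16 was at most at 0.0499 FPKM and WT1 had no fragment. Of the markers of other cell types, 1 of 6 immune genes (CD14), 1 of 5 endothelial genes (PECAM1), 2 of 6 fibroblast genes and 0 of 4 erythroid genes exceeded 1 FPKM in any library, while PTPRC, LYZ, CDH5, KDR and HBB had no fragment. The summed endothelial list was 2.39 to 3.12 FPKM in sphere-differentiated cells and 4.69 to 7.47 FPKM in floating spheres, the immune list 8.43 to 11.5 and 8.40 to 15.9 FPKM, and the fibroblast list 1.68 to 1.82 and 1.12 to 4.53 FPKM. The part of any such signal in the results was not tested. In bulk libraries, a smaller share of cells with a transcript and less of it per cell cannot be told apart.

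Of the 10 genes, 7 reached a mean of 0.5 FPKM over the 6 libraries and were tested with limma. Floating spheres had more ALDH9A1, ALDH3B1, ALDH3A1 and ALDH2 (4 of 7 higher at an adjusted p under 0.05), and 0 of 7 members were lower at that threshold or at an unadjusted p under 0.05, nor was any called lower in the 18 other fits. ALDH3A2, ALDH1B1 and ALDH1A3 had no call. Over all 15719 tested genes, 33.6% were called, 15.8% as higher and 17.8% as lower. The median log2 fold change of the tested members was 0.50, against 0.00323 for all tested genes. The same 4 members passed the study's own criterion (p under 0.05 without adjustment and a log2 fold change beyond 0.5 in either direction), which 39.4% of all genes passed, 19.5% as higher and 19.9% as lower. The groups did not overlap in 4 of 7 tested members, all higher in floating spheres, against 51.6% of all tested genes, 24.3% as higher and 27.2% as lower. ALDH3A1 reached the minimum mean only through its level in floating spheres, so it entered the test by the group in which it was high.

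**Figure D1:**
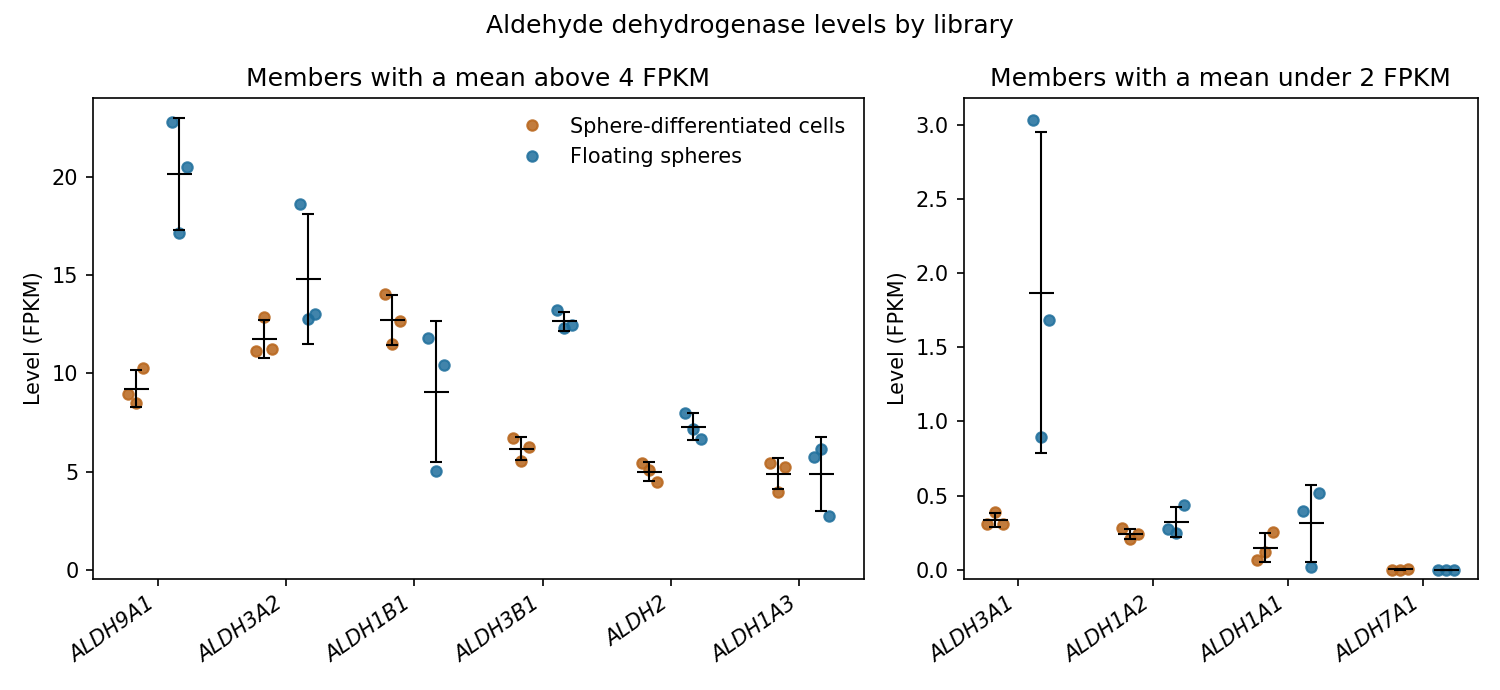
Level of each member in FPKM (vertical axes, linear, with a different scale in each panel) in every library. Points are libraries, black bars are the mean and SD of 3 libraries. ALDH9A1, ALDH3B1, ALDH2 and ALDH3A1 have no overlap between the states, and ALDH7A1 lies at 0 in 5 of 6 libraries.

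The identity of the most abundant member differed between the states. In sphere-differentiated cells, ALDH1B1 (12.7 ± 1.27 FPKM, SD, n = 3) and ALDH3A2 (11.8 ± 0.963) led, and their ranges overlapped. ALDH1B1 was first in replicates 1 and 3, and ALDH3A2 was first in replicate 2. Below them came ALDH9A1 at 9.23 ± 0.932 FPKM and ALDH3B1 at 6.17 ± 0.584 FPKM, each apart from its neighbours in the order. ALDH2 (5.00 ± 0.492 FPKM) and ALDH1A3 (4.89 ± 0.797 FPKM) overlapped with each other.

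In floating spheres, ALDH9A1 was first, with ALDH3A2 and then ALDH3B1 behind it, in each of the 3 libraries, at means of 20.2 ± 2.85, 14.8 ± 3.31 and 12.7 ± 0.488 FPKM, although the ranges of neighbours in this order overlapped. ALDH1B1 came next at 9.08 ± 3.59 FPKM and overlapped with ALDH2 at 7.29 ± 0.673 FPKM. ALDH1A3 followed at 4.87 ± 1.87 FPKM and overlapped with ALDH3A1 at 1.87 ± 1.08 FPKM. ALDH1A2, ALDH1A1 and ALDH7A1 were last in both states, in that order, with ALDH1A2 and ALDH1A1 overlapping. By the mean over all 6 libraries of both states, 78.1% of tested genes had a lower level than ALDH9A1, 75.9% than ALDH3A2, 71.1% than ALDH1B1, 67.3% than ALDH3B1, 56.0% than ALDH2 and 50.0% than ALDH1A3.

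Summed over the 10 genes, the level was 52.4, 48.2 and 51.0 FPKM in the sphere-differentiated libraries and 83.9, 61.8 and 68.5 FPKM in the floating sphere libraries. The 3 floating sphere sums were the higher ones, by 1.41 times in the mean, and by 1.34 times when libraries were rescaled to TPM, which gives every library the same total. ALDH9A1 made up 18.3% ± 1.65 of the sum in sphere-differentiated cells and 28.3% ± 1.46 in floating spheres (SD, n = 3). The share of ALDH1B1 was 25.2% ± 1.498 and 12.5% ± 3.81, and that of ALDH3B1 was 12.2% ± 0.649 and 18.0% ± 2.10. These 3 shares did not overlap between the states. ALDH3A2 held 23.4% ± 2.93 and 20.6% ± 1.57, ALDH2 9.91% ± 0.981 and 10.3% ± 1.15, and ALDH1A3 9.65% ± 1.21 and 6.93% ± 3.00, all with overlap. ALDH3A1 made up 0.669% ± 0.125 and 2.50% ± 1.08, with no overlap. Shares within a sum are not independent of each other and were not tested.

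**Figure D2:**
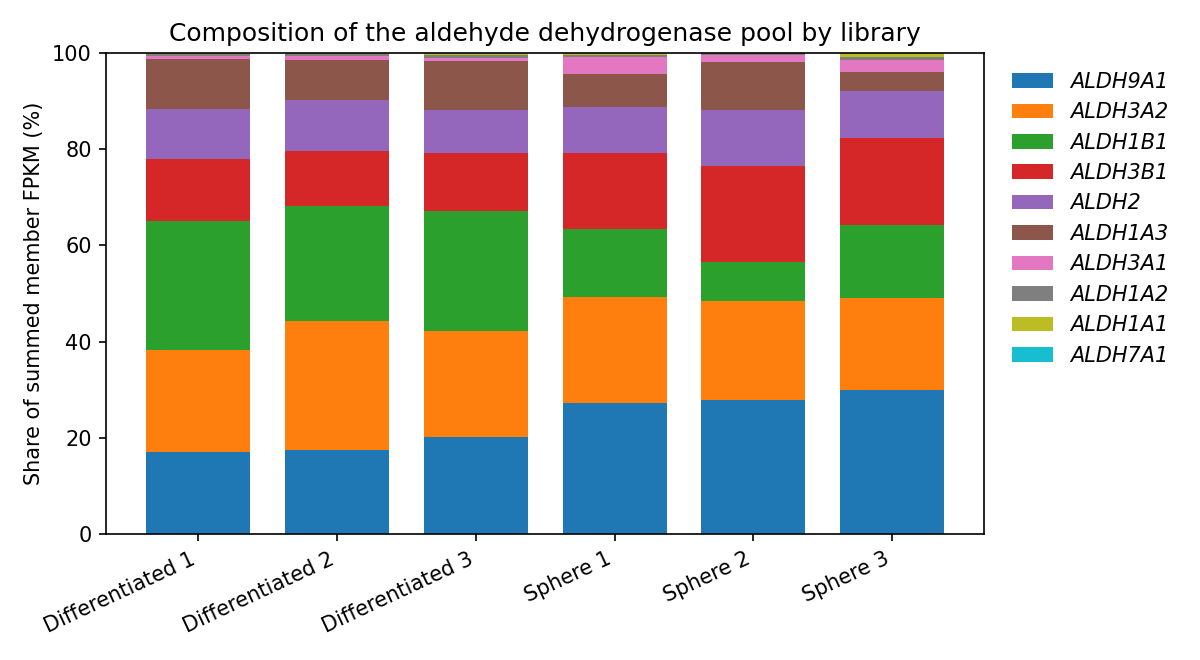
Share of each member in the summed FPKM of the 10 genes (vertical axis, %) for each of the 6 libraries (horizontal axis). ALDH9A1 takes 17.1% to 20.2% of the sum in sphere-differentiated libraries and 27.2% to 29.98% in floating sphere libraries, while ALDH1B1 takes 23.9% to 26.8% and 8.12% to 15.2%.

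Promoter sequence is shown for 3 members. ALDH3B1 was higher in floating spheres. ALDH1B1 had the highest mean in sphere-differentiated cells, although its range overlapped with that of ALDH3A2. ALDH1A1 was near the limit of detection. RefSeq windows on GRCh38.p14 were matched for 8 of the 10 members, with 11 start sites, and the stretches below hold the bases upstream of the start that lie outside exons. Capitals mark a GC box (GGGCGG, or CCGCCC on the other strand), a CCAAT box (CCAAT, either strand) or the core of the hypoxia response element (ACGTG, either strand). The searched motifs do not overlap each other in these stretches.
ALDH3B1, second start site, chr11:68010077-68010322, plus strand: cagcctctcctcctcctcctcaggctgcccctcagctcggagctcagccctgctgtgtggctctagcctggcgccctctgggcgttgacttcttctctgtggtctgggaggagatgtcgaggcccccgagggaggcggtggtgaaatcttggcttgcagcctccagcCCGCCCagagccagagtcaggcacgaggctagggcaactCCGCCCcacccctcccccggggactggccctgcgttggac
ALDH1B1, chr9:38392452-38392663, plus strand: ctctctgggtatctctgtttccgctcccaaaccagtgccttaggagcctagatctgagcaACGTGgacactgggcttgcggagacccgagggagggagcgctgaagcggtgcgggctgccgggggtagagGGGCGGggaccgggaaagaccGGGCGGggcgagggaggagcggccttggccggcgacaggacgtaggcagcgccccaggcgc
ALDH1A1, chr9:72953057-72953303, minus strand: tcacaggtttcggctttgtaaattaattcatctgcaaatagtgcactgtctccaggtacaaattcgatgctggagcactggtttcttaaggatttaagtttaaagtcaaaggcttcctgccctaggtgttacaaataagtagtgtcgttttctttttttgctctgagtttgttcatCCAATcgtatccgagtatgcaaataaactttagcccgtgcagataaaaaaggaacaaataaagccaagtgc

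In the whole window of 250 bases, ALDH3B1 held 2 GC boxes at its second start site and 0 at its first, ALDH1B1 held 2, and ALDH1A1 held 0. A GC box occurs in 42.6% of 35116 RefSeq promoter windows of the same length, a CCAAT box in 32.0% and the hypoxia element core in 18.5%. The ALDH1A1 window was poor in G and C (38.4%), and the windows of ALDH1B1 and of the second ALDH3B1 start site were rich (70.4% and 66.8%). The core of the xenobiotic response element, GCGTG, which occurs in 32.2% of windows, was found in none of these 3 windows, and neither were TGACNNNGC, the core of the antioxidant response element (10.9% of windows), and TATAAA, the TATA box (10.7%). A CCAAT box of the ALDH1B1 window lies beyond the printed stretch. These matches describe letters in a window and say nothing of the factors that bind there.

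ALDH9A1 oxidises trimethylaminobutyraldehyde in carnitine synthesis and aminobutyraldehyde from polyamine breakdown. The gene lies on the minus strand at chr1:165662216-165698863 (GRCh38). Its level was 8.93, 8.47 and 10.3 FPKM in sphere-differentiated replicates 1 to 3 and 22.8, 17.2 and 20.5 FPKM in floating sphere replicates 1 to 3. Every floating sphere library lay above every sphere-differentiated library. ALDH9A1 rose 2.19 times in floating spheres (log2 fold change 1.08, SE 0.153, on the log2(FPKM + 0.5) scale; limma adjusted p = 0.00293). The call was kept in all 18 other fits, in which the log2 fold change ran from 0.99 to 1.19.

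ALDH3B1, a membrane-associated enzyme that acts on medium- and long-chain aldehydes from lipid peroxidation, lies at chr11:68008578-68029282 on the plus strand. It was at 6.72, 5.56 and 6.24 FPKM in sphere-differentiated cells and at 13.2, 12.3 and 12.5 FPKM in floating spheres. The 3 floating sphere values were close together and all above the sphere-differentiated ones. ALDH3B1 rose 2.05 times (log2 fold change 0.98, SE 0.128, limma adjusted p = 0.00222), and all 18 other fits kept the call, with log2 fold changes of 0.83 to 1.06.

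ALDH3A1, the aldehyde dehydrogenase that makes up much of the soluble protein of the cornea, oxidises aromatic and medium-chain aldehydes. It lies at chr17:19737984-19748943 on the minus strand, near its relative ALDH3A2. Its level was 0.306, 0.392 and 0.310 FPKM in sphere-differentiated cells, from 19, 22 and 20 fragments, and 3.03, 0.892 and 1.68 FPKM in floating spheres, from 199, 57 and 112 fragments. The sphere-differentiated values were tight, whereas the floating sphere values were spread widely above them. ALDH3A1 rose 5.56 times in the mean FPKM (log2 fold change 1.40, SE 0.345, limma adjusted p = 0.0194). At so low a level the fitted value depends on the pseudocount, and it was 2.03 with a pseudocount of 0.1 and 1.03 with a pseudocount of 1. The call was lost without sphere-differentiated replicate 1 (adjusted p = 0.0576), 2 (0.0588) or 3 (0.0608) and without a filter on low values (0.0576), and the adjusted p ran from 0.00660 to 0.0608 over its 17 other fits.

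ALDH2, the mitochondrial enzyme that clears acetaldehyde from ethanol and aldehydes from lipid peroxidation, lies at chr12:111766887-111817529 on the plus strand. It was at 5.45, 5.08 and 4.48 FPKM in sphere-differentiated cells and at 8.01, 7.18 and 6.68 FPKM in floating spheres. The groups did not overlap, and the step between them was smaller than for the other called members. ALDH2 rose 1.46 times (log2 fold change 0.50, SE 0.138, limma adjusted p = 0.0287). The call was lost without sphere-differentiated replicate 1 (adjusted p = 0.0577), 2 (0.0780) or 3 (0.141) and without floating sphere replicate 1 (0.0572), and the adjusted p ran from 0.0119 to 0.141 over its 18 other fits.

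**Figure D3:**
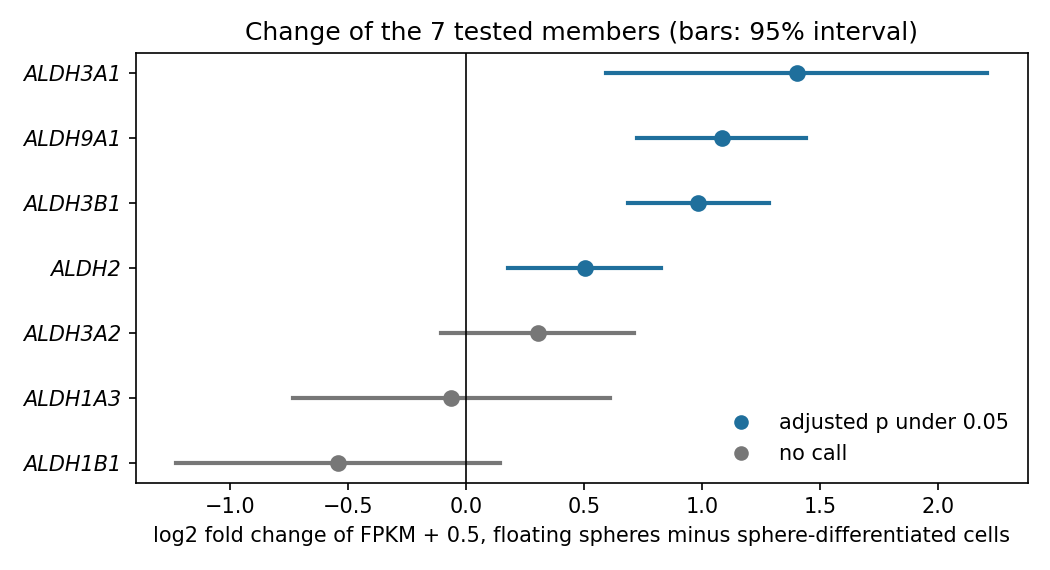
log2 fold change of FPKM + 0.5 (horizontal axis, floating spheres minus sphere-differentiated cells) for the 7 tested members (vertical axis). Points are limma estimates from 3 against 3 libraries, bars are 95% intervals, and blue marks an adjusted p under 0.05. The intervals of ALDH3A2, ALDH1A3 and ALDH1B1 include 0.

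ALDH3A2, the fatty aldehyde dehydrogenase of the endoplasmic reticulum, whose loss causes Sjögren-Larsson syndrome, lies at chr17:19648136-19677598 on the plus strand. It was at 11.1, 12.9 and 11.3 FPKM in sphere-differentiated cells and at 18.6, 12.8 and 13.0 FPKM in floating spheres. Floating sphere replicate 1 stood above the rest, and the groups overlapped. The log2 fold change was 0.30 with a 95% interval of -0.11 to 0.71 (limma adjusted p = 0.215). In 1 of 18 other fits, corrected for GC content and length, ALDH3A2 passed the threshold (log2 fold change 0.52, adjusted p = 0.0372), against adjusted p values of up to 0.461 in the others.

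ALDH1B1 encodes a mitochondrial enzyme related to ALDH2 that accepts acetaldehyde and retinaldehyde and is known as a marker of colon stem and cancer cells. It lies at chr9:38392664-38398661 on the plus strand. Its level was 14.03, 11.5 and 12.7 FPKM in sphere-differentiated cells and 11.8, 5.01 and 10.4 FPKM in floating spheres. Floating sphere replicate 2 was the lowest, while floating sphere replicate 1 lay within the sphere-differentiated range. The log2 fold change was -0.54 with a 95% interval of -1.23 to 0.14 (limma adjusted p = 0.188), and it was -0.19 without floating sphere replicate 2 and -0.77 without floating sphere replicate 1.

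The ALDH1A genes make retinoic acid, and ALDH1A3 had the highest level of the 3 in every library. ALDH1A3, at chr15:100877714-100916626 on the plus strand, was at 5.44, 3.97 and 5.25 FPKM in sphere-differentiated cells and at 5.73, 6.16 and 2.73 FPKM in floating spheres. The floating sphere values lay on both sides of the sphere-differentiated range. The log2 fold change was -0.06 with a 95% interval of -0.73 to 0.61 (limma adjusted p = 0.886), so changes of up to about that size in either direction cannot be told from none. The sign turned without floating sphere replicate 3 (0.27), again with no call. Exons of the genes AC015712.2 and AC015712.5 cover 28.6% of the ALDH1A3 exon length, and how such fragments were assigned is not given in the sources used here.

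ALDH1A1, at chr9:72900662-73080442 on the minus strand, was near the limit of detection. Its level was 0.0665, 0.122 and 0.256 FPKM in sphere-differentiated cells, from 3, 5 and 12 fragments, and 0.398, 0.0215 and 0.516 FPKM in floating spheres, from 19, 1 and 25 fragments. Floating sphere replicate 2 was the lowest of the 6 libraries and floating sphere replicate 3 the highest, so the groups overlapped. A count of 3 fragments corresponds to 0.0620 to 0.0734 FPKM for this gene, and such floors cover counting error only. ALDH1A2, at chr15:57953424-58497866 on the minus strand, was at 0.278, 0.210 and 0.240 FPKM and at 0.277, 0.249 and 0.437 FPKM, also with overlap. Neither gene reached the minimum mean for the test. When the filter was left out, the log2 fold changes were 0.28 for ALDH1A1 (limma adjusted p = 0.540) and 0.14 for ALDH1A2 (0.575). ALDH1A3 accounted for 91.4% to 94.0% of the summed FPKM of the 3 genes in the sphere-differentiated libraries and for 74.1% to 95.8% in the floating sphere libraries.

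ALDH7A1, or antiquitin, oxidises the semialdehyde of lysine breakdown and betaine aldehyde, and its loss causes pyridoxine-dependent epilepsy. Only 2 fragments were assigned to it in the 6 libraries, both in sphere-differentiated replicate 3 (0.00676 FPKM). With 17970 bases of merged exon, a count of 3 fragments corresponds to 0.00983 to 0.0116 FPKM, so transcripts of ALDH7A1 were not detectable above this level in either state. No other gene's exons overlap those of ALDH7A1, and 0.317% of its stretches of 100 bases also occur in another gene, the pseudogene ALDH7A1P1. The gene lies at chr5:126531200-126595418 on the minus strand. Its nearest protein-coding neighbours, chosen by position, were both detected. PHAX, an export adaptor of small nuclear RNA that begins 4850 bases away, was at 11.1, 12.2 and 11.0 FPKM and at 11.5, 6.83 and 9.47 FPKM. GRAMD2B, 34706 bases away on the other side, was at 2.24 to 2.90 FPKM in sphere-differentiated cells and at 0.995 to 1.62 FPKM in floating spheres.

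The genes whose levels followed the 3 most abundant members most closely were taken by Pearson correlation over the 6 libraries among 7256 protein-coding genes that averaged 5 FPKM or more. With 6 libraries in 2 states, high values are common, and the coefficients are given as a description. ALDH9A1 was closest to CAVIN3, a caveola coat protein (0.998), HNRNPF, a splicing factor (0.997), and CYB5D2 (0.996). CAVIN3 stood at 4.72 FPKM in sphere-differentiated cells and 32.5 FPKM in floating spheres. ALDH3A2 was closest to CBX3, a heterochromatin protein (0.987), UQCRC2, a subunit of respiratory complex III (0.986), and TXNDC15 (0.985). Among the genes closest to ALDH1B1 were YDJC (0.997) and DNAJB12, a chaperone of the endoplasmic reticulum (0.995).

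Of the 9 other human aldehyde dehydrogenase genes, 5 were tested, 1 was higher and 1 lower in floating spheres (median log2 fold change 0.28), shares near the 15.8% and 17.8% over all genes. ALDH16A1, a family member whose human protein lacks the catalytic cysteine, was at 2.56, 1.52 and 2.07 FPKM in sphere-differentiated cells and at 9.65, 4.23 and 7.05 FPKM in floating spheres (log2 fold change 1.51, limma adjusted p = 0.00845). ALDH18A1, which makes the proline precursor pyrroline-5-carboxylate, fell from 49.5, 49.4 and 50.9 FPKM to 36.6, 35.2 and 39.6 FPKM (log2 fold change -0.42, limma adjusted p = 0.0333), a call lost when any of the 3 sphere-differentiated replicates was left out. It was thus several times as abundant as any of the 10 members in sphere-differentiated cells, and the groups did not overlap in either gene.

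Retinoid genes were examined on both sides of the ALDH1A step. Of 11 tested genes that handle retinol or retinaldehyde, 4 were higher and 1 lower (median log2 fold change 0.28). The shares over all genes were 15.8% higher and 17.8% lower. RETSAT, which saturates retinol, was at 5.09, 3.85 and 5.11 FPKM in sphere-differentiated cells and at 19.2, 12.7 and 10.6 FPKM in floating spheres (log2 fold change 1.47, limma adjusted p = 0.00411). RDH11, a retinaldehyde reductase, rose with a log2 fold change of 0.96, LRAT, which esterifies retinol for storage, with 1.03, and RDH14, another retinol dehydrogenase, fell with -0.90. The count of 4 was 2 when any of the 3 sphere-differentiated replicates or floating sphere replicate 3 was left out and when no filter on low values was used, and RDH14 lost its call when any of the sphere-differentiated replicates was left out. Exons of another gene cover 16.6% of RDH14. As RETSAT, RDH11 and LRAT act in ways other than forming retinaldehyde, the count of 4 is not a measure of retinaldehyde supply. Among the 6 genes with no call, RDH10 (log2 fold change -0.33) and SDR16C5 (-0.48) were lower in every floating sphere library. The other genes with no call overlapped between the states.

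Of 14 tested genes of retinoic acid signalling and response, 7 were higher and 1 lower (median log2 fold change 0.45), against 15.8% and 17.8% of all tested genes. The 7 were CYP27C1, RARG, RARRES3, CRABP2, TGM2, RXRA and RARA. CYP27C1, which desaturates retinol, was at 2.02, 1.60 and 1.85 FPKM in sphere-differentiated cells and at 5.37, 5.02 and 5.53 FPKM in floating spheres (log2 fold change 1.32, limma adjusted p = 0.00123). The receptor gene RARG rose with a log2 fold change of 0.72, and RARRES3, named for its induction by a retinoid, with 2.09. RARRES2, which encodes the chemoattractant chemerin and was likewise named as a retinoid responder, moved the other way, from 7.43, 5.70 and 6.48 FPKM to 1.52, 0.862 and 1.62 FPKM (log2 fold change -1.96, limma adjusted p = 0.00125). The count of 7 was 3 without sphere-differentiated replicate 2, and 4 without sphere-differentiated replicate 3 or floating sphere replicate 3. Without the latter, 2 genes were lower. The 6 with no call were CYP26A1 (log2 fold change -0.43), CYP26B1 (-0.12), FABP5 (0.32), NRIP1 (-0.0086), RARRES1 (-0.76) and RXRB (-0.05). RARB had at most 3 fragments in a library and was not tested. As RARG, RXRA and RARA are receptor genes and CYP27C1 acts on retinol, the count of 7 is not a measure of the response to retinoic acid.

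ALDH3A1 is a known target of the aryl hydrocarbon receptor (AHR). It moved opposite to the called genes of the AHR battery, here a list of AHR-related genes. Of 8 tested genes, 0 were higher and 6 lower in floating spheres (median log2 fold change -1.04), where 15.8% and 17.8% of all genes were. CYP1A1, the classical AHR target, was at 7.26, 8.06 and 6.44 FPKM in sphere-differentiated cells and at 0.730, 1.61 and 2.18 FPKM in floating spheres (log2 fold change -2.02, limma adjusted p = 0.00278). TIPARP fell with a log2 fold change of -1.81, CYP1B1 with -1.39, NFE2L2, the master regulator of the antioxidant response, with -1.17, the receptor gene AHR with -0.92 and its repressor AHRR with -0.86. NQO1, a target of both the receptor and NFE2L2, was at 322, 353 and 314 FPKM and at 480, 228 and 347 FPKM, with no call (0.03), and ARNT, the partner of the receptor, had no call. Exons of other genes cover 32.3% of AHR and 20.9% of NFE2L2. The count of 6 was 5 or 6 in the 18 other fits, and the difference between ALDH3A1 and the rest of the battery was not tested. As AHR is the receptor gene itself and NFE2L2 regulates another response, the count of 6 is not a measure of AHR activity.

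Around ALDH3A2, the listed genes of the fatty aldehyde cycle and of ether lipid and sphingosine phosphate metabolism were lower or had no call. Of 11 tested genes, 0 were higher and 5 lower (median log2 fold change -0.18), compared with 15.8% and 17.8% of all genes. SGPL1, the sphingosine phosphate lyase that releases hexadecenal, was at 17.3, 16.6 and 17.01 FPKM in sphere-differentiated cells and at 6.85, 6.20 and 9.51 FPKM in floating spheres (log2 fold change -1.15, limma adjusted p = 0.00348). FAR1, which reduces fatty acyl-CoA to fatty alcohol, fell with a log2 fold change of -0.95, AGPS, an ether lipid enzyme, with -0.59, and SGPP1, a sphingosine phosphate phosphatase, with -0.46. The count of 5 was 2 when any of the 3 sphere-differentiated replicates was left out and with the correction for GC content and length, and 3 without floating sphere replicate 3. Without floating sphere replicate 2, 1 gene was higher. As AGPS and SGPP1 act in ways other than forming fatty aldehyde, the count of 5 is not a measure of fatty aldehyde supply.

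**Figure D4:**
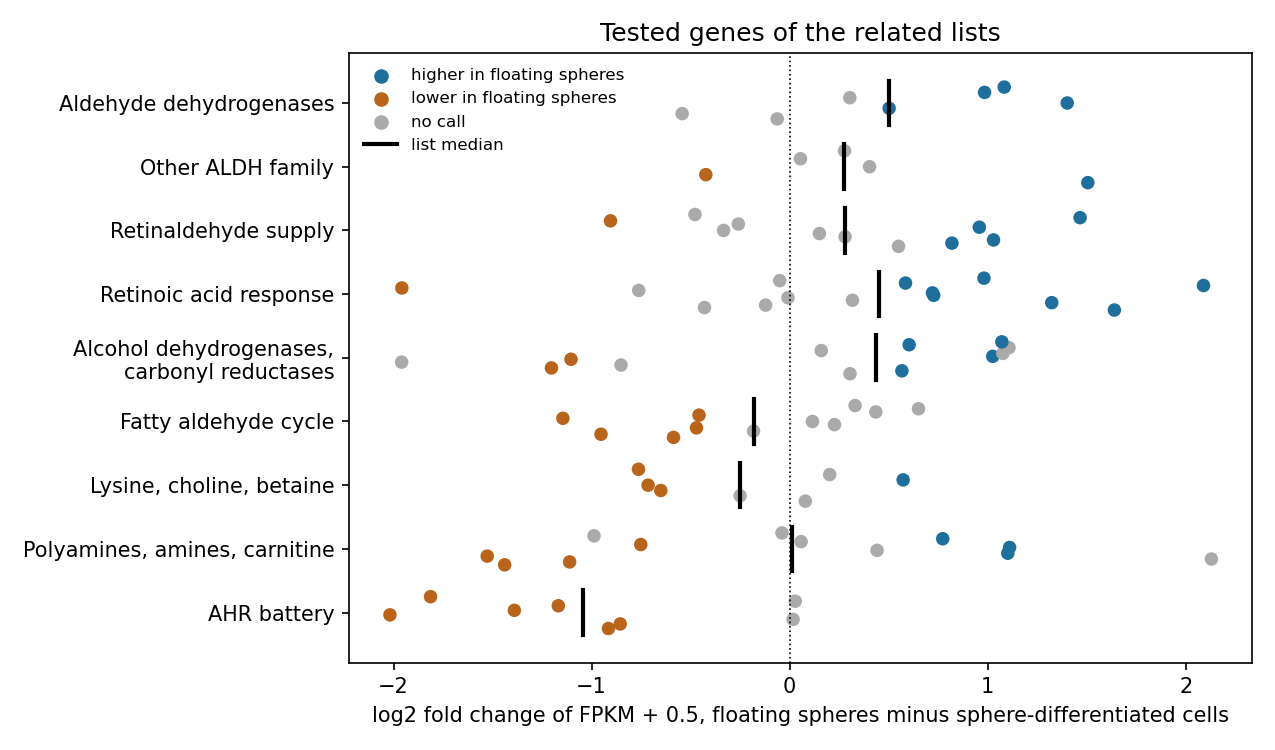
log2 fold change of FPKM + 0.5 (horizontal axis, floating spheres minus sphere-differentiated cells) of each tested gene in the 10 members and the related lists (vertical axis). Points are genes, coloured by their call at an adjusted p under 0.05, and black bars are list medians, which run from -1.04 for the AHR battery to 0.50 for the aldehyde dehydrogenases.

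Among 12 tested genes of polyamine, amine and carnitine metabolism, in which ALDH9A1 works, 3 were higher and 4 lower (median log2 fold change 0.00933), beside 15.8% and 17.8% over all genes. SHMT1, whose enzyme is thought to cleave the precursor of the ALDH9A1 substrate, was at 6.03, 4.73 and 5.15 FPKM in sphere-differentiated cells and at 15.1, 10.0 and 11.3 FPKM in floating spheres (log2 fold change 1.11, limma adjusted p = 0.00470). The polyamine oxidase gene PAOX rose with a log2 fold change of 1.10, while the carnitine transporter gene SLC22A5 fell with -0.75 and the amine oxidase gene AOC2 with -1.44. The lower count was 2 when the minimum mean was 5 FPKM, a level that AOC2, AOC3 and SLC22A5 did not reach. AOC3, also among the 4 lower genes, had a mean of 1.21 FPKM in sphere-differentiated cells and 0.298 FPKM in floating spheres. It reached the minimum mean only through the former, so it entered the test by the group in which it was high.

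Of 7 tested genes listed around lysine, choline and betaine breakdown, in which ALDH7A1 works, 1 was higher, a share near the 15.8% over all genes. In the same list 3 were lower, beside 17.8% (median log2 fold change -0.25). Choline kinase CHKA fell with a log2 fold change of -0.71, choline dehydrogenase CHDH, which makes the betaine aldehyde that ALDH7A1 oxidises, with -0.65, and the choline transporter SLC44A1 with -0.76. DHTKD1, which acts further down the lysine pathway, rose with 0.57. Exons of other genes cover 18.0% of CHDH and 16.3% of CHKA. As CHKA is a kinase and SLC44A1 a transporter, the count of 3 lower genes is not a measure of breakdown. That count was 1 without sphere-differentiated replicate 1 or 2 and 0 without replicate 3. DHTKD1 lost its call in 9 of 18 other fits.

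Of 12 tested alcohol dehydrogenases and carbonyl reductases, 4 were higher and 2 lower (median log2 fold change 0.44), with 15.8% and 17.8% over all genes. These enzymes form or reduce aldehydes or other carbonyl compounds. AKR7A2, an aldehyde reductase, was at 15.4, 12.3 and 13.1 FPKM in sphere-differentiated cells and at 36.0, 23.2 and 26.4 FPKM in floating spheres (log2 fold change 1.03, limma adjusted p = 0.00686). DCXR rose with a log2 fold change of 1.07 and CBR4 with 0.60. AKR1B1, aldose reductase, was far more abundant than any aldehyde dehydrogenase, at 1314, 1522 and 1178 FPKM in sphere-differentiated cells, and fell to 670, 356 and 808 FPKM in floating spheres (log2 fold change -1.20, limma adjusted p = 0.0248). When any of the 3 sphere-differentiated replicates was left out, the counts were 2 higher and 0 lower. The lower count was also 0 without the filter on low values, 4 without floating sphere replicate 1 and 1 without floating sphere replicate 3, and the higher count was 2 without the filter.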

How the data were processed

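RNA was sequenced from 3 libraries labelled Stem cells and 3 labelled Adherent cells. From the study's description, the former were taken as floating spheres and the latter as sphere-differentiated cells. The authors deposited FPKM values per gene and library; their processing notes name featureCounts (1.5.0-p3) for counting and the genome build hg38. Aligner, annotation release and strand handling: not given in the sources used here. Multiplied by the merged exon length in GENCODE, 100% of the values above 0 came out as whole fragments within 0.01, 14725462 to 16376331 per library. These sums were 96.2% to 102.7% of the library totals that the FPKM values imply. In sphere-differentiated replicate 2 the sum exceeded the implied total, so that total is not a plain fragment count.

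Genes averaging 0.5 FPKM or more were tested with limma 3.58.1 (R 4.3.3) on log2(FPKM + 0.5), with an intensity trend and group as the only term. Benjamini-Hochberg adjustment ran over all 15719 genes, with calls under 0.05. Named were the 10 members, up to 4 genes per related list with the smallest adjusted p, and the 3 genes closest to each of the 3 most abundant members. Other list members, marker genes and neighbours were named after their values were seen. Some genes that these rules take are not reported here. The members and lists were chosen with earlier results of these data known. The test was tried on simulated data. Alternatives were 18 fits. Replicate numbers did not pair the libraries.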

Additional observations from a re-analysis of the deposited data

How the results depend on the processing

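ALDH9A1 and ALDH3B1 kept their calls in all 18 alternative fits, ALDH2 and ALDH3A1 in 13 of their 18 and 17, and no called member changed direction. The count of members called higher ran from 2 to 4 when each library was left out, and was 2 when any of the sphere-differentiated replicates was left out. Over all genes, 2487 were higher and 2792 lower. Leaving out each library gave 1352 to 2479 higher and 1454 to 2861 lower genes, and a minimum mean of 5 FPKM gave 1478 higher genes among fewer genes tested. Median-of-ratios scaling again gave 2487 higher and 2792 lower genes, so it added little as an alternative. limma voom on the recovered fragments called 2758 higher and 2903 lower. The cause of these differences was not tested. Libraries with the same replicate number did not deviate together (correlations of -0.07 to -0.02, with 0 of 6 libraries closest to their own number). With the replicate number as a block, 1994 genes were higher and 2094 lower, and among the members ALDH2 lost its call (adjusted p = 0.0536). Among the related lists, the block gave 2 lower calls in place of 5 in the fatty aldehyde cycle, 0 in place of 2 among alcohol dehydrogenases and carbonyl reductases (AKR1B1 included) and 0 in place of 1 among the other aldehyde dehydrogenases (ALDH18A1), and DHTKD1 lost its call. ALDH1A1, ALDH7A1 and ALDH1A2 had 65, 2 and 237 fragments in all 6 libraries, and the minimum mean left each of them untested.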
